A study of Mus musculus with 36 samples.

Results

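Cas9 was used to remove β-catenin from cultured nephron progenitor cells (NPCs) kept in a low dose of the Wnt agonist CHIR99021 (CHIR), and the RNA of those cells is described here. The comparison holds 4 of the 36 libraries of the series, chosen by their labels: 2 with a *Ctnnb1* sgRNA and 2 with a GFP sgRNA, all in 1.25 µM CHIR. The table lists 26863 genes, of which 16780 were tested because their mean over its 16 libraries was 10 normalized counts or more. The series asks what β-catenin and its Tcf/Lef partners do to the transcriptome of NPCs at doses of CHIR that keep them self-renewing or make them differentiate.

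The cells were primary NPCs from embryonic mouse kidneys at E16.5, from mice on a Swiss Webster or C57Bl/6 background that carried a Cas9-eGFP allele expressed constitutively, not in this lineage alone. All 4 cultures were held in low CHIR overnight, transfected with a single-guide RNA together with mCherry mRNA, left in low CHIR for 1 day so that the gene was cut and its product lost, and then cultured for 1 more day in fresh medium with low CHIR. Cells positive for mCherry were taken for RNA. The control cells also carried Cas9 and were also cut, in their GFP transgene. The labels give a replicate number of 1 or 2 in each group and do not say whether these were separate cultures, litters or kidneys, so each p-value measures the spread between these libraries only. In bulk RNA, fewer cells of a type and less RNA per cell cannot be told apart.

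β-Catenin, the product of *Ctnnb1*, has a pair of roles in a cell. At adherens junctions it links cadherins to α-catenin and the actin cytoskeleton. In the canonical Wnt pathway a destruction complex built on Axin and APC marks it for degradation, Wnt ligands or an inhibitor of GSK3 such as CHIR stop that, and the stabilised protein enters the nucleus and binds Tcf/Lef factors on DNA. In the developing kidney, Wnt9b from the ureteric bud signals to the *Six2*+ progenitors through this pathway, and the same pathway acts in both their renewal and their commitment to form nephrons.

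The study designed 4 guides against *Ctnnb1* (ENSMUSG00000006932, GRCm38 chromosome 9, 120929216 to 120960507, plus strand), and their sequences are shown because they define what was done to the cells. Each is given 5′ to 3′ in lower case, followed in capitals by the 3 bases of the PAM read next to it in the GENCODE vM21 transcript *Ctnnb1*-201, which has 15 exons and 2343 coding bases.
Ctnnb1 sgRNA1: atgagcagcgtcaaactgcgTGG
Ctnnb1 sgRNA3: agccaagcgctggacattagTGG
Ctnnb1 sgRNA5: agctacttgctcttgcgtgaAGG
Ctnnb1 sgRNA6: gagattatgcagtgtcgtgaTGG
All 4 matched the transcript at 1 place, on the minus strand, inside coding sequence. The guide sgRNA5 lies in exon 3 (chr9:120950729-120950748) and would cut after coding base 223, which is 9.52% of the way along the coding sequence, in codon 75 of 781. The guides sgRNA1 (chr9:120950987-120951006) and sgRNA3 (chr9:120951011-120951030) both lie in exon 4 of this transcript, with cuts after coding bases 337 and 361, although the guide table names exon 2 for the first and exon 3 for the second. The guide sgRNA6 lies in exon 6 (chr9:120951618-120951637) and would cut after coding base 769, or 32.8% of the coding sequence. A small insertion or deletion at any of these cuts can shift the reading frame of the protein from that codon on. Whether every transfection held all 4 guides is not given in the sources used here.

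The 2 *Ctnnb1* sgRNA libraries held 22109883 and 21192322 reads on genes, and the GFP sgRNA libraries 20103029 and 18092866. Values are normalized counts, that is, reads scaled by a size factor of the library to make libraries comparable, and 1 read was worth between 0.914 and 1.08 normalized counts in these 4. The labelled cell type was checked by its markers. *Six2*, the transcription factor that defines NPCs, had 1888 and 1898 normalized counts in the *Ctnnb1* sgRNA libraries (the knockout), against 1731 and 2373 in the GFP sgRNA libraries (the controls). *Cited1*, a coregulator made by the least committed NPCs, had 10780 and 12220 against 5978 and 9802. Of the macrophage and white blood cell markers, *Ptprc*, *Csf1r* and *Lyz2* were at 0 to 1.84. *Cd68* had 33.83 and 17.45 normalized counts in the knockout against 45.7 and 29.22 in the controls. No values were listed for *C1qa*, *Cx3cr1*, *Adgre1* and *Tyrobp*. Stromal markers were present and went with the replicate number: the 12 genes of the list summed to 28534 and 23892 normalized counts in the 2 libraries numbered 1, and to 14073 and 9446 in the 2 numbered 2.

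The targeted gene came first. *Ctnnb1* had 1652 and 1040 normalized counts after its own removal, and 2521 and 3397 in GFP sgRNA controls. The groups did not overlap, and the higher of the knockout libraries stood at about the same distance below the lower control as the 2 controls stood apart. The difference was -1.16 on the log2(normalized count + 1) scale (standard error 0.23, 95% interval -1.66 to -0.66), which is a 2.23-fold lower level. Limma's moderated test gave an unadjusted p of 2.25e-04, which did not pass after Benjamini-Hochberg adjustment over all 16780 genes (adjusted p = 0.252). Reads from an edited transcript still count, so this level does not give the share of alleles that were cut. At its 3′ end *Ctnnb1* overlaps *Ulk4* on the other strand, and the cDNA kit does not mark the strand. *Ulk4* had 267.9 and 191 normalized counts with the *Ctnnb1* sgRNA against 372.6 and 299.8 (log2 difference -0.56, adjusted p = 1), and reads that the pair share cannot be told apart. *Jup*, whose product plakoglobin (γ-catenin) is the nearest relative of β-catenin, had 2031 and 1071 normalized counts against 1692 and 1163, and these ranges overlapped (log2 difference 0.07).

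Few genes differed in low CHIR. At an adjusted p under 0.05 and a log2 difference of at least 0.5, 6 genes rose (0.0358% of those tested) and 3 fell (0.0179%). All 9 sat at an adjusted p of 0.0495, and the next gene, *Trim2*, sat at 0.0564, so the calls lie at the edge of the threshold. Without adjustment, p under 0.05 and this log2 limit took in 260 genes (1.55%) on the higher side and 230 (1.37%) on the lower. The calls were not kept under every setting. No gene was called when limma was fitted on the 8 Cas9 libraries or the 4 libraries of this comparison alone, with a pseudocount of 0.5, or by edgeR's quasi-likelihood test on recovered reads of 14 libraries, while DESeq2 on those reads called 8 higher and 4 lower genes, among them the same 9. Without any single library of the 4, at most 1 gene was called: *Sel1l3* without *Ctnnb1* sgRNA replicate 1, *Mmp9* without GFP sgRNA replicate 2, and none without *Ctnnb1* sgRNA replicate 2 or GFP sgRNA replicate 1.

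**Figure D1:**
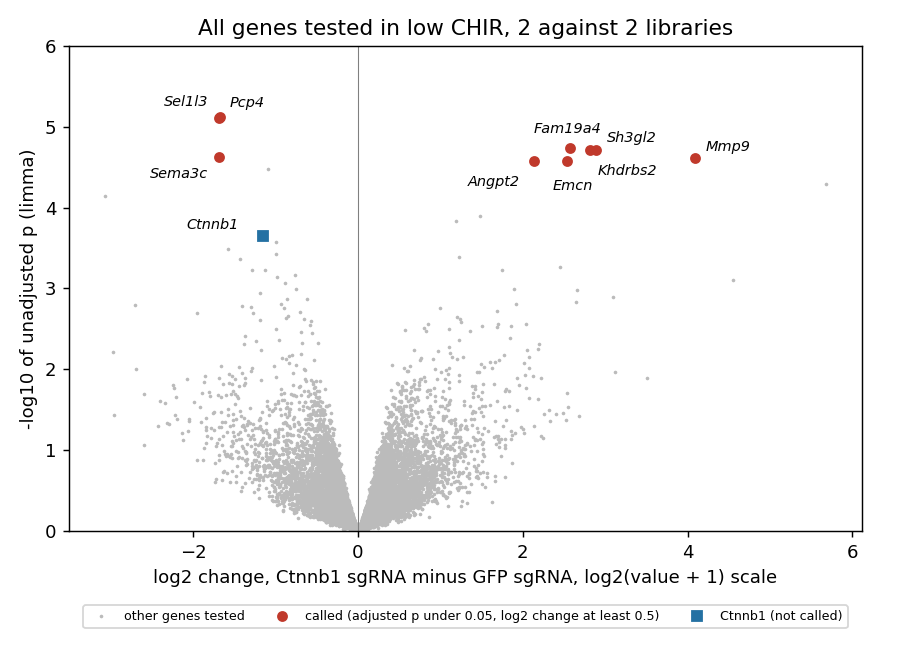
Each point is 1 of the 16780 genes tested, placed by its log2 difference between *Ctnnb1* sgRNA and GFP sgRNA libraries (x axis) and the −log10 of limma's unadjusted p (y axis), 2 libraries against 2. The 9 called genes (red) form 1 group of 6 on the right and 1 group of 3 on the left, and *Ctnnb1* (blue) lies below them at an unadjusted p of 2.25e-04.

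The 6 genes that rose code for proteins of the cell surface and its surroundings, of membranes and of RNA. *Emcn* codes for endomucin, a sialomucin of the cell surface best known from capillary and venous endothelium (GRCm38 chromosome 3, 137341067 to 137432185). Its normalized counts were 719.5 and 503.3 in the knockout and 126.2 and 83.3 in the controls, a 5.82-fold rise (log2 2.54 ± 0.41, standard error, n = 2 against 2, adjusted p = 0.0495 by limma). The lowest knockout library was several times the highest control.

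*Angpt2* (chromosome 8, 18690263 to 18741562) codes for angiopoietin-2, a secreted ligand of the Tie2 receptor that opposes angiopoietin-1 on blood vessels. It had 468.1 and 319.6 normalized counts against 98.4 and 76.8, a 4.41-fold rise (log2 2.14 ± 0.34, adjusted p = 0.0495). *Angpt2* lies inside *Mcph1*, which runs on the other strand. *Mcph1* did not follow, with 331 and 296.6 against 312 and 331.2 (log2 difference -0.04).

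*Mmp9* (chromosome 2, 164940780 to 164955850) codes for gelatinase B, a secreted protease that cleaves denatured collagen and basement membrane. It had 85.9 and 78.1 normalized counts in the knockout, and 0.994 and 10.8 in the controls. In reads these were 94 and 85 against 1 and 10, so the control level rests on very few reads. The ratio of the summed reads, scaled by depth, was 14.4, with an exact 95% binomial interval of 7.85 to 29.4 that covers counting error only, and the fitted log2 difference was 4.09 ± 0.65 (adjusted p = 0.0495).

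*Fam19a4* (chromosome 6, 96831203 to 97060413), now called *Tafa4*, codes for a small secreted protein of the chemokine-like TAFA family. Its normalized counts were 584.2 and 367.4 against 58.6 and 100.6, a 5.96-fold rise (log2 2.58 ± 0.40). *Khdrbs2* (chromosome 1, 32172714 to 32658568) codes for SLM1, an RNA-binding protein of the Sam68 family that acts in splicing. It had 565 and 693.4 against 58.6 and 132 (log2 2.82 ± 0.44), and *Sh3gl2* (chromosome 4, 85205126 to 85639195), which codes for endophilin A1 of clathrin-mediated endocytosis, had 193.8 and 184.6 against 20.9 and 29.2 (log2 2.89 ± 0.45). The adjusted p of all 3 was 0.0495, and none of their groups overlapped. Over 125024 bases *Sh3gl2* overlaps *Adamtsl1* on the same strand, which had 24.7 and 18.4 against 24.8 and 6.49 normalized counts.

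The 3 genes that fell were *Sema3c*, *Sel1l3* and *Pcp4*. *Sema3c* (chromosome 5, 17574281 to 17730268) codes for a secreted class 3 semaphorin, a guidance cue for axons and vessels, and fell 3.22-fold from 562.3 and 533.5 normalized counts in the controls to 169.1 and 169.9 in the knockout (log2 -1.69 ± 0.27, adjusted p = 0.0495). *Sel1l3* (chromosome 5, 53107083 to 53213927), a membrane protein related to the Sel1l adaptor of protein degradation, had 789.9 and 666.7 in the controls and 288 and 177.3 in the knockout (log2 -1.68 ± 0.24). *Pcp4* (chromosome 16, 96467606 to 96525793) codes for a small protein that binds calmodulin, and had 563.3 and 700.2 in the controls and 163.7 and 231.4 in the knockout (log2 -1.69 ± 0.24). The spread between replicates was small beside these gaps, and in each of the 3 genes the higher knockout library was under the lower control library by more than 2-fold.

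Next, the 10 genes of smallest p in each direction were taken as a description, from those whose mean over the 4 libraries was 50 normalized counts or more, whose log2 difference was at least 0.5 and whose groups did not overlap. Groups that did not overlap were common, at 16.1% of all genes tested on the higher side and 14% on the lower side (5.66% and 4.43% with the log2 limit), so this feature alone says little of a gene. Beyond the called genes, the higher ones were *Col2a1*, *Ddah1*, *Bcl2l11*, *Enpp1* and *Upp1*, with adjusted p between 0.164 and 0.684. *Col2a1*, the fibrillar collagen of cartilage, had 4156 and 2791 normalized counts against 1373 and 1088. *Ddah1*, which breaks down an inhibitor of nitric oxide synthase, had 2249 and 2148 against 885.2 and 1042, and *Bcl2l11*, which codes for the pro-apoptotic protein Bim, had 1760 and 1922 against 676.6 and 917.7. *Enpp1*, which makes pyrophosphate outside the cell, had 113.4 and 86.3 against 21.9 and 37.9, and *Upp1*, a uridine phosphorylase, 282.5 and 253.5 against 44.7 and 109.3.

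The lower genes beyond the called ones were *Trim2*, *Ctnnb1*, *Kif5c*, *Tnfrsf19*, *Hs3st3b1*, *Gfra2* and *Vat1l*, with adjusted p between 0.0564 and 0.413. *Trim2*, a ubiquitin ligase, had 252.3 and 224.1 normalized counts with the *Ctnnb1* sgRNA against 549.4 and 466.4 (log2 difference -1.09). *Kif5c*, a kinesin motor, had 142.6 and 111.1 against 276.2 and 229.4. *Tnfrsf19*, also called Troy, a receptor of the TNF family that is a Wnt target in other tissues, had 48.5 and 34.9 against 161.9 and 96.3 (log2 difference -1.58). In *Hs3st3b1*, which adds sulfate to heparan chains, the values were 333.7 and 332.5 against 616 and 718.6. *Gfra2*, the neurturin co-receptor, had 177.4 and 114.8 against 401.4 and 375.5, and *Vat1l* had 60.3 and 80.8 against 185.8 and 160.2. Of these, the knockout libraries agreed most closely for *Hs3st3b1* and the control libraries for *Gfra2*. *Samd5*, chosen after its values were seen, had 95.1 and 53.3 normalized counts against 0.994 and 0 (adjusted p = 0.0771), and its mean was too low for the rule.

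**Figure D2:**
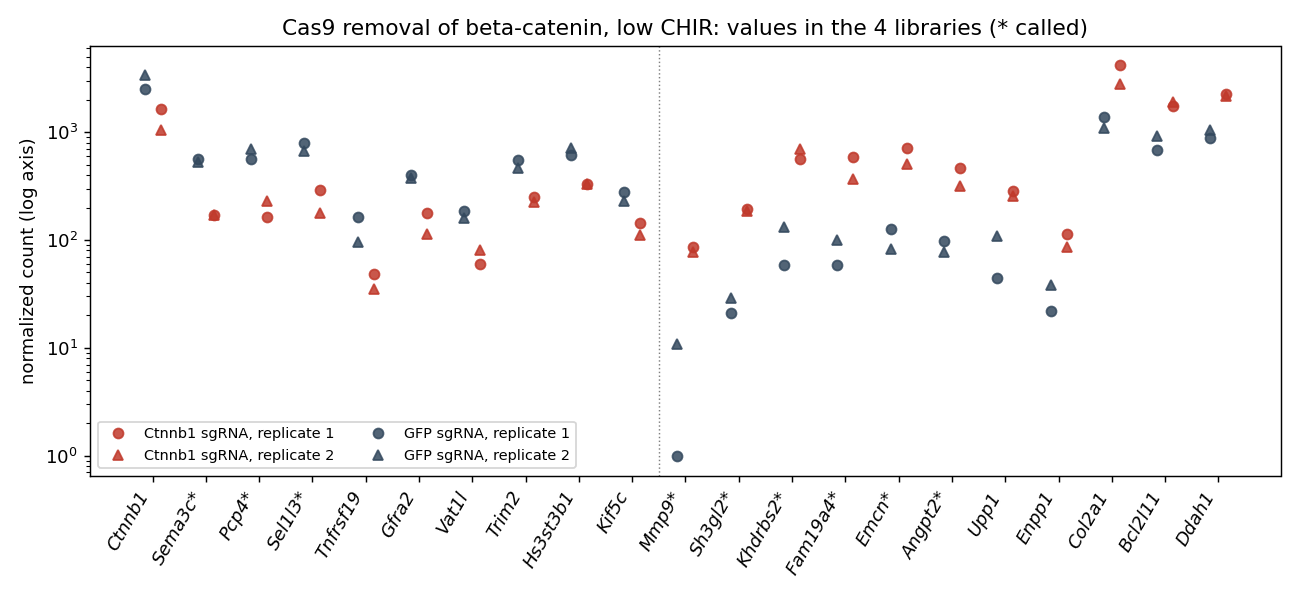
Normalized counts (log axis) of *Ctnnb1*, the 9 other lower and the 11 higher genes in each of the 4 libraries, with red for *Ctnnb1* sgRNA, grey-blue for GFP sgRNA, circles for replicate 1 and triangles for replicate 2, and an asterisk on the 9 called genes. The colours are separate for every gene shown, which the choice of genes fixed, and *Mmp9* has the widest gap and the lowest control value, at 0.994.

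The promoters of these genes were searched for the letters to which Tcf/Lef factors bind, CTTTGAA or CTTTGAT on either strand, from 250 bases before to 50 after the start of each RefSeq transcript (GRCm38.p6). Of the 21 genes, 16 had a promoter in the table. A match was found for 1 of them, *Tnfrsf19*, while 8.65% of all 32851 promoter windows held one. The match begins 202 bases before the start of *Tnfrsf19*, on the strand opposite to the gene, and is shown in capitals within its neighbouring bases (chr14:61038175-61038197, written along the gene's minus strand).
Tnfrsf19 promoter: aatgggggATCAAAGtgacaaac
A match of letters is a description and not a binding site, and these short windows leave out distant enhancers.

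To place the same genes beside other ways of lowering Wnt signalling, 3 comparisons that share no library with this one were read in the same genes. In the first, Cre mRNA was given to low CHIR NPCs homozygous for a conditional *Ctnnb1* allele (*Ctnnb1* c/c) and compared with the same cells without Cre, 2 libraries against 2. The second is Cas9 removal in high CHIR (5 µM), again 2 against 2, and the third is wild-type NPCs with no CHIR against low CHIR, 3 against 3 in a table of their own. The 11 higher genes had a median log2 difference of 2.14 here, 2.37 with Cre, 3.13 with Cas9 in high CHIR and 2.36 on withdrawal of CHIR. Of the 11, all 11 had a higher value with Cre (49.2% of all genes did), all 11 in high CHIR (50%) and 10 on withdrawal (51%). Of these, 7, 9 and 5 passed adjusted p under 0.05, where 0.179%, 3.44% and 2.37% of all genes were called higher. The 9 lower genes other than *Ctnnb1* had medians of -1.44 here, and of -2.15, -1.24 and -2.02. Their values were lower for 9 genes with Cre (50.8% of all genes), 8 in high CHIR (50%) and 9 on withdrawal (48.8%), of which 9, 7 and 5 passed, against 0.149%, 1.64% and 2.6% of all genes called lower. These genes had been picked with earlier results of these libraries known. They were also picked by smallest p, and the Cre and high CHIR comparisons take their spread from the same limma fit. A gene with a small spread in that fit passes more easily in each of them, so passing there is not independent of the choice. The wild-type libraries had a fit of their own. The counts of passing genes needed the adjusted p alone, while the shares of all genes called also needed the log2 limit.

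With Cre in low CHIR, *Khdrbs2* had 1076 and 856.1 normalized counts against 70 and 59.5 without Cre, and *Sh3gl2* 368.4 and 292.2 against 28.9 and 16.5. *Emcn* had 1174 and 748 against 165.5 and 147.4. *Sel1l3* had 174.9 and 155.8 with Cre against 1022 and 1069 without, and *Pcp4* 73.5 and 96.6 against 598.6 and 597.9. All 5 stood clear of their controls and passed (adjusted p between 2.03e-04 and 0.0138). *Mmp9* had 167.7 and 70.8 with Cre against 27.8 and 14.7 without, which did not pass (adjusted p = 0.171), and on withdrawal of CHIR it had 20.1, 33.7 and 23.5 against 80.2, 37 and 13.2, where the groups overlapped.

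*Angpt2* and *Fam19a4* also rose when CHIR was withdrawn from wild-type NPCs. *Angpt2* had 217.2, 221 and 286 normalized counts with no CHIR against 21, 14.2 and 44.3 in low CHIR (log2 3.28, adjusted p = 0.00599), and *Fam19a4* had 1065, 857.7 and 991.9 against 15.8, 13.3 and 91 (log2 5.11, adjusted p = 0.00372). Among the lower genes *Tnfrsf19* had 46.6, 35.1 and 12.3 against 360, 343.7 and 268.3, and *Gfra2* 72.7, 19 and 21.2 against 344.3, 323.8 and 275.5. *Pcp4* differed from these: with no CHIR it had 609, 1472 and 708.2 against 1024, 1050 and 1418, and the groups overlapped.

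**Figure D3:**
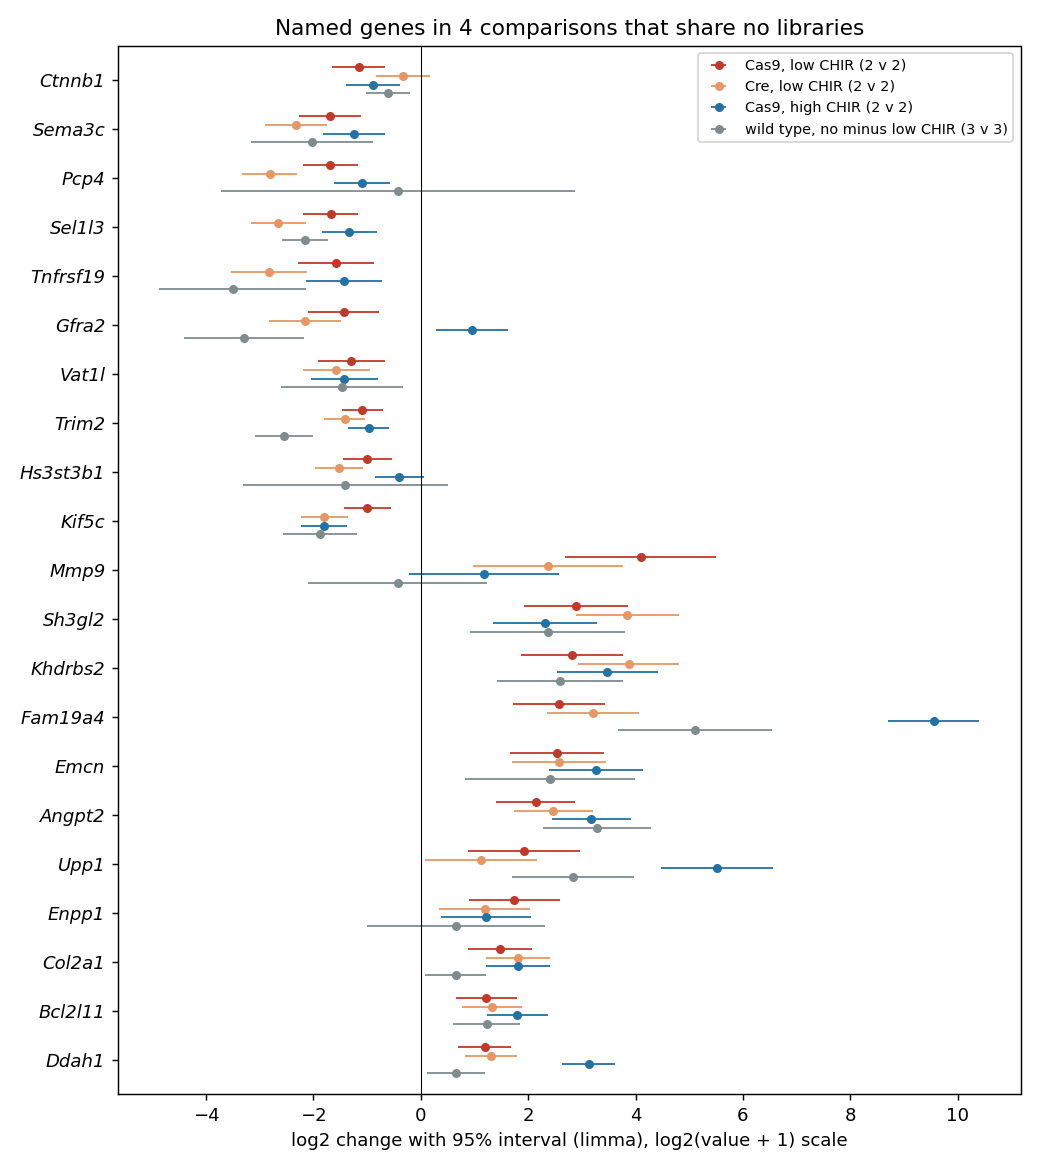
Log2 difference with its 95% interval from limma for *Ctnnb1* and the 20 other named genes (y axis) in Cas9 removal in low CHIR (red), Cre removal in low CHIR (orange), Cas9 removal in high CHIR (blue) and wild type without CHIR minus low CHIR (grey). The 11 higher genes lie right of 0 in all 4 except *Mmp9* on withdrawal of CHIR (-0.43), and the 9 lower genes lie left of it except *Gfra2*, at 0.95 in high CHIR and at -1.44 or below in the others.

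Whether Cas9 and Cre removal in low CHIR changed genes by different amounts was tested as an interaction. No gene passed (limma, 0 of 16780, 0%). Unadjusted p under 0.05 with the log2 limit took in 244 genes that were more upward with Cas9 (1.45%) and 289 that were more downward (1.72%), and edgeR and DESeq2 on recovered reads of 14 libraries also called 0. The gene of smallest p was *Nxph1*, a secreted neurexin ligand, whose change with Cas9 minus that with Cre was -4.62 on the log2 scale (limma, unadjusted p = 4.15e-05, adjusted p = 0.696). It had 672.9 and 1183 normalized counts in the Cas9 knockout against 196.7 and 373.4, and 98.3 and 64.4 with Cre against 0 and 0 without, so that the fitted value depends on the pseudocount. For *Ctnnb1* itself the difference between the methods was -0.82 ± 0.33 (adjusted p = 1), from 3085 and 2451 normalized counts with Cre against 3880 and 3097 without. The study's immunostaining found β-catenin protein reduced by both methods, and these RNA levels do not measure how much protein each removed. Among the called genes *Pcp4* and *Sel1l3* had differences between the methods of 1.13 ± 0.34 and 0.98 ± 0.34 (adjusted p = 1 for both, the fall with Cas9 being the smaller), and *Emcn* of -0.04 ± 0.58. Over the 9 called genes the standard error of this difference was 0.34 to 0.92.

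The same guides had a different reach in high CHIR. There 578 genes rose and 276 fell (3.44% and 1.64%), and the interaction test found 87 genes whose change differed between doses: 8 were changed more upward in low CHIR (0.0477%) and 79 more downward (0.471%). *Fam19a4* was listed at 0 in both GFP sgRNA libraries in high CHIR and had 804.8 and 696.2 normalized counts with the *Ctnnb1* sgRNA, which is at least 293-fold higher when each control is set to the 3 reads that a count of 0 allows, against a 5.98-fold ratio of means in low CHIR. Between doses the controls of *Fam19a4* differed by more than the knockout libraries did. *Upp1* showed the same arrangement, with 241.3 and 235.9 against 3.75 and 4.79 in high CHIR, and so did *Ddah1*, with 2118 and 2242 against 224.1 and 274.7 (adjusted p of the interaction 0.0317 and 0.0139).

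*Gfra2* changed direction between doses. In high CHIR it had 120.6 and 145.2 normalized counts in the knockout and 57.7 and 80.4 in the controls. The low CHIR values were 177.4 and 114.8 in the knockout and 401.4 and 375.5 in the controls. The difference between doses was -2.39 ± 0.44 (limma, adjusted p = 0.0256), and again the controls differed between doses by more than the knockout libraries did. *Htr3a*, a serotonin-gated ion channel, had 257 and 276.6 in the high CHIR controls and 47 and 39.6 in the high CHIR knockout, but 5.96 and 2.16 in the low CHIR controls and 17.4 and 15.6 in the low CHIR knockout. *Lrp4*, a receptor of the LDL family that can dampen Wnt signalling, had 355.7 and 360.9 against 767 and 545.4 in low CHIR, and 1357 and 1033 against 8017 and 7340 in high CHIR.

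**Figure D4:**
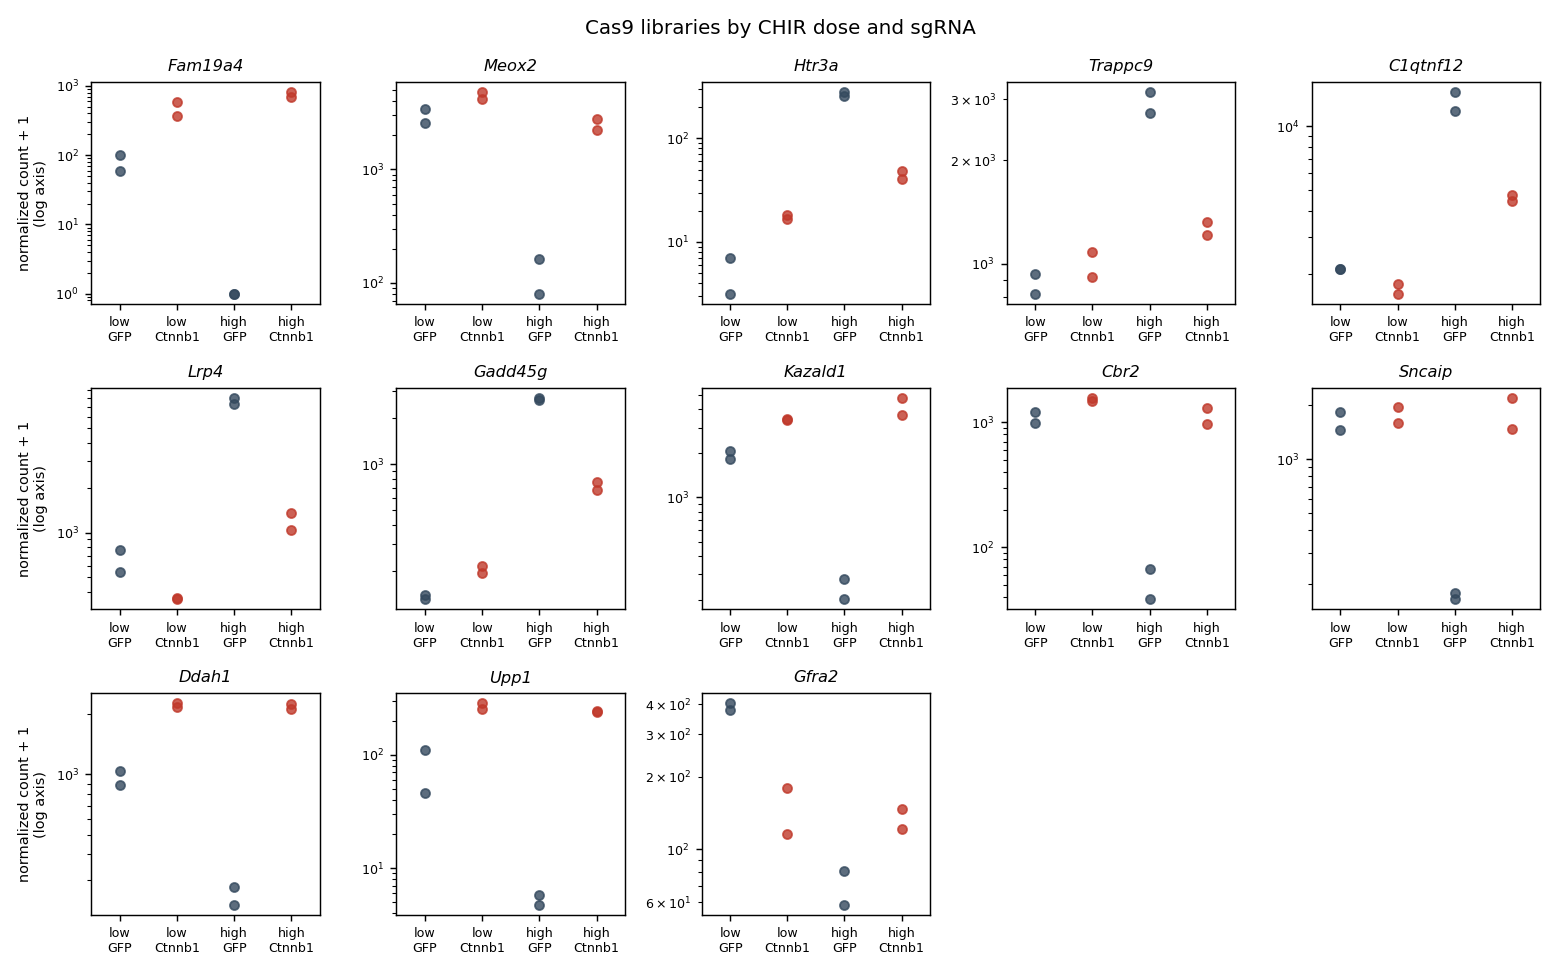
Normalized count plus 1 (log axis, scaled for each gene) in the 8 Cas9 libraries for the 10 genes named by the test of low against high CHIR and for *Ddah1*, *Upp1* and *Gfra2*, by dose and sgRNA, with red for *Ctnnb1* sgRNA and grey-blue for GFP sgRNA. The high CHIR controls stand apart from the other 3 groups for *Fam19a4*, where both are at 0, and for *Htr3a*, where they have 257 and 276.6 against at most 47 elsewhere.

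No canonical Wnt feedback gene was called in low CHIR. Of 17 listed genes 16 were tested and 0 were called. Values were lower for 12 and higher for 4 (48.9% and 51.1% of all genes). The 12 include *Notum*, at 0.914 and 0.918 against 0.994 and 1.08 (1 read in each library), and *Sp5*, at 0 and 0 against 0 and 2.16. Values this low give no usable direction. The median log2 difference of the 16 was -0.25 against 0.0072 for all genes. That median was -0.049 without GFP sgRNA replicate 1 and -0.379 without GFP sgRNA replicate 2. It turned to 0.067 by edgeR and 0.055 by DESeq2, which also lack GFP sgRNA replicate 1. Limma's p was under 0.05 before adjustment for 2 of them, both lower, as for 1.67% of all genes (and 1.76% on the higher side): *Tnfrsf19*, given above, and *Znrf3*, a ubiquitin ligase that clears Frizzled receptors, which had 1176 and 1230 normalized counts against 1795 and 1811 (log2 difference -0.58, adjusted p = 0.802). *Axin2*, the scaffold of the destruction complex and the usual reporter of the pathway, had 69.5 and 34.9 against 74.5 and 48.7, which overlapped. *Lef1*, a Tcf/Lef factor that is itself a target, had 78.6 and 61.5 against 124.2 and 68.2, also overlapping. Without GFP sgRNA replicate 1 the difference turned from -0.28 to 0.017 for *Axin2* and from -0.40 to 0.029 for *Lef1*, and that of *Axin2* also turned without *Ctnnb1* sgRNA replicate 2 (0.202). In high CHIR 6 genes of this list fell, where 1.64% of all genes did.

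Nor was any part of the pathway that carries the signal. None of the 23 tested genes for the destruction complex, Tcf7l1 and Tcf7l2, the Groucho corepressors and other effectors was called or passed the unadjusted test, and their differences ran from -0.38 (*Tle4*) to 0.27. Of 17 tested genes for catenins, cadherins and the adherens junction 0 were called. *Cdh4* (R-cadherin) was the 1 that passed the unadjusted test (1.67% of all genes did on the lower side). It had 860.3 and 1093 normalized counts against 1355 and 1412 (log2 difference -0.51, adjusted p = 1). Vinculin (*Vcl*) had 819.2 and 658.5 against 486.8 and 524.9, groups that did not overlap, with a standard error of 0.50 from the whole table against a log2 difference of 0.54 (limma, adjusted p = 1).

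Genes of NPC self-renewal and of differentiation were also read as lists. The first list is mixed. The study counts its members *Pax2* and *Uncx* among β-catenin targets, and reports *Pax2* and *Sall1* as raised further in high CHIR. Among 15 tested self-renewal genes 0 were called, with a median difference of -0.10, which turned to 0.129 without GFP sgRNA replicate 2 and to 0.031 without GFP sgRNA replicate 1. At an unadjusted p under 0.05 there were 2 higher and 2 lower (1.76% and 1.67% of all genes). *Meox1*, a homeobox factor, had 290.7 and 119.4 normalized counts against 79.5 and 35.7, and *Meox2* 4180 and 4769 against 2553 and 3390, while *Pax2*, the kidney paired-box factor, had 67.7 and 75.3 against 113.3 and 153.7 and *Sall1*, a zinc-finger factor of the same cells, 2361 and 3303 against 3245 and 5161. *Six2* had a difference of -0.10 (95% interval -0.83 to 0.64) and *Cited1* of 0.58 (-0.37 to 1.54). With 2 libraries a group, any difference inside these intervals is compatible with the data.

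The 13 tested differentiation genes had a median of -0.35, 0 called, 10 lower and 3 higher (48.9% and 51.1% of all genes). The median was -0.047 without GFP sgRNA replicate 1. *Jag1*, a Notch ligand of the renal vesicle, had 362.1 and 442.7 normalized counts against 746.1 and 579 (log2 difference -0.71, unadjusted p = 0.0253, adjusted p = 1), with groups that did not overlap. *Lhx1* had 94.2 and 64.3 against 156 and 140.7. *Wnt4*, the signal that starts the epithelial transition, was low in all 4 libraries, at 17.4 and 11.9 against 10.9 and 8.66, and *Fgf8* was listed at 0 in all 4. The wide effect of the same guides on these genes was in high CHIR. There *Jag1* had 4151 and 2282 against 14830 and 13850, and 5 of the list fell (1.64% of all genes did). Of the self-renewal genes 6 rose (3.44% of all genes did), among them *Cited1* with 1956 and 2261 against 37.5 and 94.8. Another 2 of them fell (1.64% of all genes did). For 4 self-renewal genes, *Cited1*, *Meox2*, *Tmem100* and *Osr1*, the difference between the doses passed (log2 -4.53, -3.84, -3.64 and -3.39), as for 0.471% of all genes in that direction, and for 0 of the differentiation genes.

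In the Myc network, 0 of 10 tested genes were called. *Mycn* had 534.9 and 318.7 normalized counts against 843.5 and 595.2 (log2 difference -0.78 by limma, unadjusted p = 0.0211), which was -0.405 without *Ctnnb1* sgRNA replicate 2 and -1.15 without *Ctnnb1* sgRNA replicate 1, and *Mga*, a Max partner that represses Myc sites, 877.7 and 794.4 against 1183 and 1280. In the Bcl2 family 2 pro-apoptotic members with only a BH3 domain were higher, *Bcl2l11*, given above, and *Bmf*, with 125.3 and 144.2 against 47.7 and 80.1. The anti-apoptotic *Bcl2* was lower, with 2843 and 3107 against 4260 and 4638 (unadjusted p = 0.0203). None of these passed limma's adjusted test, and the other 12 of 15 tested members did not pass the unadjusted one. Of all genes 1.76% passed the unadjusted test on the higher side and 1.67% on the lower. *Bcl2* and *Bmf* ran in the opposite direction in high CHIR, where *Bcl2* had 1749 and 1892 against 443.6 and 670 and *Bmf* 171.3 and 147 against 404.7 and 462.3, and for both the difference between doses passed (adjusted p = 0.00358 and 0.0262).

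*Angpt2* and *Sema3c* were the called members of their families. Of 10 tested angiopoietin and Vegf genes only *Angpt2* was called, and *Pgf*, placental growth factor, had 991.1 and 815.5 normalized counts against 267.3 and 284.6. The *Pgf* groups did not overlap, and with a standard error of 0.85 from the whole table the log2 difference of 1.70 did not pass (limma, adjusted p = 1). Of their receptors, *Tek*, *Tie1*, *Kdr* and *Flt1* were under 12 normalized counts in all 4 libraries and were not tested. The other listed receptors were tested, and none passed the unadjusted test. *Nrp1* had 4382 and 3243 normalized counts against 2260 and 1779, and *Flt4* 501.9 and 386.6 against 693.5 and 579, without overlap in either gene. *Nrp2* had 203 and 63.4 against 189.8 and 70.3, which overlapped. Among 13 tested class 3 semaphorins and receptors *Sema3c* fell, and *Plxnd1*, a plexin that binds semaphorins, had 517.5 and 466.5 against 274.2 and 219.7 (log2 difference 1.00, unadjusted p = 0.00175, adjusted p = 0.684). Of 11 tested matrix metalloproteases and Timps, *Mmp9* rose and none of the other 10 passed the unadjusted test. In the Gdnf family *Gfra2* was the 1 of 5 tested that passed the unadjusted test, and *Gdnf* itself had 390.4 and 202 against 332.8 and 274.9, with a direction that turned to 0.37 without *Ctnnb1* sgRNA replicate 2 and to 0.031 without GFP sgRNA replicate 1.

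A list of endothelial markers holds *Emcn*, and 5 of its 12 genes were tested. *Emcn* was called, and *Plvap*, a protein of endothelial fenestrae, had 919.8 and 1379 normalized counts against 507.7 and 529.2, while *Cldn5* had 59.4 and 30.3 against 19.9 and 10.8. These were the 3 that passed the unadjusted test (1.76% of all genes did on the higher side). *Egfl7* had 540.3 and 418.8 against 367.6 and 293.3. *Eng* had 122.5 and 53.3 against 148 and 21.6, which overlapped. The 12 listed genes summed to 2387 and 2405 in the knockout and to 1214 and 970.8 in the controls. The markers that define endothelium, *Pecam1*, *Cdh5*, *Kdr*, *Tek*, *Tie1* and *Flt1*, were each between 0 and 11.9 in every library, and *Esam* was listed at 0 in both knockout libraries and at 9.94 and 10.8 in the controls.

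The other marker lists were small or tied to the replicate number. None of the 10 tested stromal markers passed the unadjusted test, and within each replicate number their sum, given above, was higher in the knockout. Among ureteric epithelium markers *Krt18* had 106.1 and 98.3 normalized counts against 50.7 and 35.7 and *Krt8* 25.6 and 61.5 against 15.9 and 15.2. They were the 2 of 6 tested that passed the unadjusted test (1.76% of all genes did on the higher side). *Gata3* had 167.3 and 61.5 against 91.4 and 27.1 and *Epcam* 69.5 and 166.2 against 76.5 and 113.6. The other tested members had lower values, *Cdh1* with 15.5 and 46.8 against 37.8 and 45.5 and *Tfap2b* with 12.8 and 11.9 against 22.9 and 16.2, while *Ret* and *Calb1* stayed at or under 5.96 and *Wnt11* at or under 20.9. The list summed to 416.9 and 460.1 against 324.9 and 271.6. Blood and macrophage markers summed to 118.9 and 70.7 against 99.4 and 44.4, and differentiated nephron markers to 99.7 and 128.6 against 87.4 and 88.7, with *Synpo* at 47.5 and 50.5 against 9.94 and 23.8. The other two tested nephron markers had lower fitted values, *Nphs1* with 28.3 and 50.5 against 57.6 and 41.1 and *Podxl* with 0.914 and 10.1 against 9.94 and 9.74. What these lists contribute to the differences above was not tested.

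No cell cycle gene passed a threshold, though most had lower values. Of 43 tested S phase genes 39 had a lower and 4 a higher value (48.9% and 51.1% of all genes did), and their median log2 difference was -0.19 against 0.0072 for all genes. In 26 of the 43 the groups did not overlap on the lower side, where 14% of all genes did not. *Gmnn*, geminin, had 786.3 and 1067 normalized counts against 1326 and 1123, and *Hells*, a chromatin remodeller, 952.7 and 1109 against 1327 and 1356. For 54 genes of G2 and M phase the median was -0.06, with 40 lower. Of the 43 and 54 genes, 0 passed limma's unadjusted test in either direction. The 22 tested p53 targets, which respond to DNA breaks, had a median of -0.07 (up to 0.026 with 1 library left out) and 0 past the unadjusted test, and *Cdkn1a* (p21) had 1323 and 1443 against 1577 and 2001. Both groups had been cut by Cas9.

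Interferon-response genes had higher values in 24 of 27 tested (51.1% of all genes did). Their median log2 difference was 0.39 (0.0072 for all genes), with 0 past the unadjusted test. The median rested on single libraries, at -0.118 without GFP sgRNA replicate 2, 0.227 without *Ctnnb1* sgRNA replicate 1, 0.829 without *Ctnnb1* sgRNA replicate 2 and 1.01 without GFP sgRNA replicate 1. *Ifit1* had 138.1 and 100.1 normalized counts against 80.5 and 46.5 and *Oasl2* 271.5 and 157 against 168.9 and 89.8. In both, replicate 1 was above replicate 2 within each group, and their standard errors were 1.12 and 0.69 on the log2 scale. The summed list was 7050 and 3925 against 5709 and 2927. With Cre in low CHIR the median of this list was 2.25 (-0.0068 for all genes), and 3 of its genes rose, where 0.179% of all genes did.

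Genes that the text of the study names for low CHIR, which are part of its longer lists, were taken as a last pair of lists, and since the study chose them on these libraries their direction is not independent evidence. All 10 tested genes of the lower list were lower at an unadjusted p under 0.05 (1.67% of all genes were). Of the 10, 2 (*Sema3c* and *Sel1l3*) were called, and the list median was -1.21. *Elavl4*, an RNA-binding protein of neurons, had 341 and 404.1 normalized counts against 695.5 and 781.4, and *Syt9*, a synaptotagmin, 66.7 and 57.9 against 128.2 and 147.2. The 3 genes of the higher list, *Mmp9*, *Angpt2* and *Bcl2l11*, had differences of 4.09, 2.14 and 1.22.

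**Figure D5:**
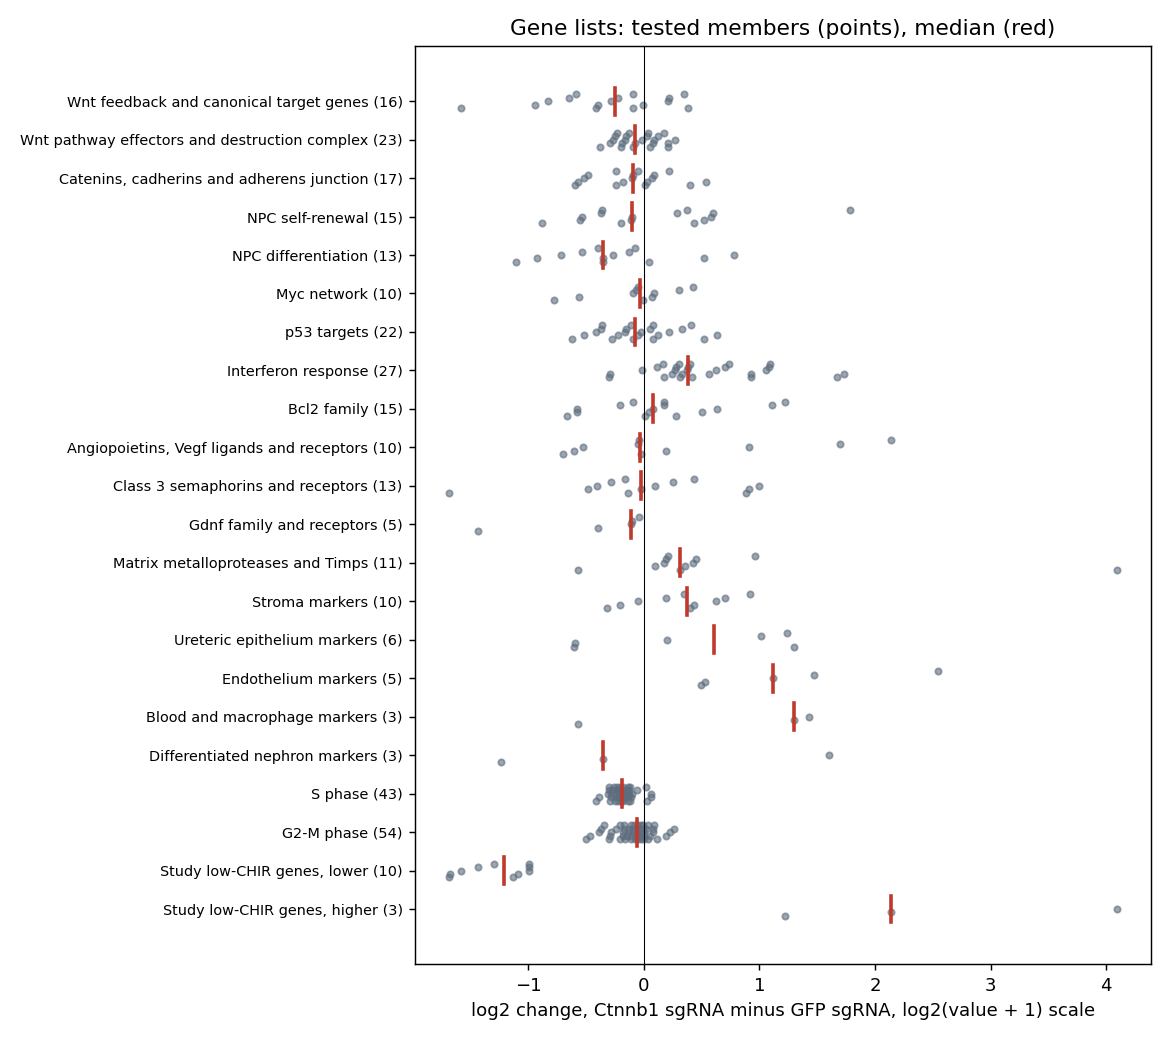
Log2 difference of each tested member (point) of the 22 gene lists in low CHIR, with the number tested after the list's name and the list median as a red bar. Most medians lie within 0.5 of 0, and the S phase points crowd just left of it at -0.19. The largest shifts belong to the endothelium, ureteric epithelium and blood and macrophage lists, and to the 2 lists that the study chose on these libraries.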

How the data were processed

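Sorted NPCs gave SMARTer cDNA, sequenced from both ends for 150 bases. The authors used STAR to align reads to a joint reference of GRCm38 (mouse) and GRCh38 (human), counted them on Ensembl genes with featureCounts and deposited normalized counts from DESeq2, a signal made by scaling each library's reads with its own size factor. The deposited tables of comparisons hold the authors' fold changes and p-values, and these and the Tcf/Lef table were not used. Divided by the smallest step of its library, 100% of the values fell within 0.01 of a whole number, which recovered the reads per library, between 14537850 and 27838106 in the β-catenin table. In 2 of its 16 libraries 1 read was worth almost exactly 1 normalized count, and these were left out of tests on recovered reads. GFP sgRNA replicate 1 in low CHIR was among them, so that the GFP sgRNA arm in low CHIR has 1 library there.

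Limma 3.58.1 in R 4.3.3 was fitted to all 16 libraries of the β-catenin table, on log2(normalized count + 1) with a trended variance, so that the other 12 libraries share the estimate of the spread. Fold changes on this scale understate the change of genes with low values. Benjamini-Hochberg adjustment ran over the 16780 genes whose mean was 10 or more. Called means an adjusted p under 0.05 and a log2 difference of at least 0.5. With 2 libraries against 2, no exact permutation test (two-sided) can fall under 0.333, so none was used. Wild-type libraries were fitted in their own table. As alternatives, DESeq2 1.42.0 (Wald test) and edgeR 4.0.16 (quasi-likelihood test) were applied to recovered reads. In simulated counts for this comparison (16219 genes), the limma steps recovered 88% of genes changed by 1 on the log2 scale and 100% of those changed by 2, with 9 false calls. In the real libraries *Ctnnb1* at -1.16 and *Tnfrsf19* at -1.58 did not pass (limma, adjusted p = 0.252 and 0.32). The simulated shares therefore do not show that uncalled genes were unchanged.

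Named genes were *Ctnnb1*, every called gene, the 10 of smallest p in each direction (mean of at least 50, log2 difference of at least 0.5, groups not overlapping), list members with an unadjusted p under 0.05 with the 2 largest differences per list, and the 5 genes of smallest p per direction of each interaction. Cell cycle lists came from Seurat 5.3.0, other lists from general knowledge or, for a pair, from the study. Members and lists were chosen with earlier results of these data known. Replicate numbers were not taken to pair libraries, since the labels name no shared batch. Guides were matched to GENCODE vM21, and promoters come from RefSeq.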

Additional observations from a re-analysis of the deposited data

Results flagged for a closer look

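The change on Cas9 removal differed between low and high CHIR, by limma's interaction test over the 8 Cas9 libraries within the 16-library fit (adjusted p under 0.05), for 79 genes that were changed more downward in low CHIR and 8 that were changed more upward. The values that follow are the log2 change in low CHIR minus that in high CHIR, with 2 libraries in each of the 4 groups. *Htr3a* differed by 4.50, *Gadd45g*, a stress and DNA repair gene, by 2.50, *Lrp4* by 1.84, *Trappc9* by 1.40 and *C1qtnf12* by 1.21. On the other side *Fam19a4* differed by -6.97, a value that depends on the pseudocount since its high CHIR controls were at 0. *Cbr2*, a carbonyl reductase, differed by -3.99, *Meox2* by -3.84, *Kazald1* by -3.33 and *Sncaip* by -3.27. Of the genes named for low CHIR alone, *Upp1* differed by -3.60, *Gfra2* by -2.39 and *Ddah1* by -1.94. Without 1 library of the 4 in low CHIR the count of 87 lay between 36 and 55. The control libraries of the doses differ in CHIR for their last day, so a difference between doses joins what CHIR did to the controls with what the guides did.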

How the results depend on the processing

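The number of called genes in low CHIR went from 6 higher and 3 lower to 0 and 0 when limma was fitted on the 8 Cas9 libraries, on the 4 libraries alone, with a pseudocount of 0.5 or by edgeR, and also when limma was fitted on the 14 libraries of the count tests, an alternative chosen after seeing the data. Without any single library it was 0 to 1 in each direction. Fits with a pseudocount of 5, no filter, a mean of at least 50, TMM, a log2 limit of 1 or DESeq2 called 5 to 8 higher and 3 to 4 lower genes. With the replicate number as a block, 16 genes were higher and 5 lower, including the 9 and *Bcl2l11*, *Col2a1*, *Ddah1* and *Trim2* (adjusted p = 0.00911, 0.0185, 0.0446 and 0.0134), and 235 differed between doses. The replicate differences of the 2 low CHIR groups correlated at 0.491 across genes, and those of the 5 other pairs of Cas9 groups at 0.116 to 0.297, but with 2 numbers and no batch in the labels the numbers were not taken to pair libraries. The block changed no call of the Cas9 against Cre test, which stayed at 0 under every setting run. DESeq2 found 166 genes that differed between doses against 87, and leaving out 1 library gave 36 to 55.

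*Ctnnb1* kept its direction in all settings, between -1.49 and -0.82 without 1 library. It did not pass in any setting that kept all 4 libraries (limma, adjusted p of 0.0527 to 0.809). It passed only with DESeq2 (-1.34), which lacks GFP sgRNA replicate 1 and so rests on 1 control library, the one with the higher *Ctnnb1* level. On the same 14 libraries edgeR gave -1.33 and limma -1.37, and neither passed. Some uncalled genes changed sign: by edgeR *Gdnf* (0.115), *Lef1* (0.046) and *Axin2* (0.107), by DESeq2 the same (0.1, 0.033 and 0.092) and by limma on 14 libraries the same (0.031, 0.029 and 0.017). Each of these settings leaves out GFP sgRNA replicate 1. Limma without that library alone gave the same 0.031, 0.029 and 0.017, so these sign changes are not separate from that omission. With 1 library left out *Gdnf* ranged from -0.58 to 0.367, *Lef1* from -0.827 to 0.029, *Axin2* from -0.771 to 0.202, *Six2* from -0.326 to 0.129, *Timp3* from -0.323 to 1.174, *Lum* from -0.03 to 1.87, *Col1a1* from -0.001 to 1.247 and *Jup* from -0.389 to 0.533. Other uncalled genes kept their direction but moved by over 1.5 times, such as *Meox1* (1.147 to 2.424), *Meox2* (0.397 to 0.806), *Sall1* (-0.886 to -0.216), *Cdh4* (-0.685 to -0.34), *Krt8* (0.687 to 1.92), *Synpo* (1.011 to 2.193) and *Cited1* (0.228 to 0.941). The cause was not tested. A lone library left in a group is assumed to vary like the other groups.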
